A study of Mus musculus with 6 samples.

Results

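Mast cells are tissue-resident granulocytes that store proteases, heparin and histamine, and 9 genes of their proteases, receptors and regulators were followed through RNA-sequencing libraries of sorted mouse macrophages. The genes were chosen by name: the chymase genes Cma1 and Mcpt4, the tryptase gene Tpsb2, the carboxypeptidase gene Cpa3, the receptor genes Kit, Ms4a2 and Fcer1a, the histidine decarboxylase gene Hdc and the transcription factor gene Gata2. All 9 had a row in the deposited table of 23946 genes. Macrophages (CD45+CD11b+F4/80+) were sorted from the omentum (OM) and from the mesenteric adipose tissue (MY) of wild-type C57BL/6 mice that were naive (0h), or that had received ID8 cells, a mouse ovarian carcinoma line, by intraperitoneal injection 24h or 7d earlier. The mice were female, 6 to 8 weeks old, and handled as 3 groups of 3. The table holds 1 column for each of the 6 conditions, treated here as 1 library, and no vehicle-injected group is among the 6. Omenta of 3 mice were pooled per tube, while how the mesenteries were combined, and whether a column is 1 pooled library or an average, is not given in the sources used here. No replicate spread exists, so no p-value is given, neighbouring levels in any order below cannot be separated by a spread, and each difference describes a pair of libraries.

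In a mast cell, stem cell factor signals through KIT for survival, and IgE bound to its high-affinity receptor (the FCER1A alpha chain, the MS4A2 beta chain and the FCER1G gamma chain) triggers release of the granules when antigen crosslinks it. The granules of connective tissue mast cells hold chymases, tryptases and carboxypeptidase A3 on a scaffold of heparin and serglycin, together with histamine made by HDC. GATA2 drives transcription of many of these genes. Mast cells are normal residents of the mesentery and of other serosal tissues. The sort used no antibody to KIT or to the IgE receptor.

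Values are FPKM, fragments per kilobase of transcript, scaled to the aligned reads of each library, so levels can be set side by side between genes. FPKM summed to between 526887 and 713863 per library. The lowest products of FPKM and transcript length piled up at what appears to be the value of 1 fragment, and from this the fragments behind a value were estimated roughly. By the same estimate the depth ran from 0.806 (OM 0h) to 1.42 (OM 7d) times that of MY 0h. All 9 genes of a macrophage list, among them Emr1 (F4/80), Itgam (CD11b) and Ptprc (CD45), were at an FPKM of at least 1 in all 6 libraries. Genes of other leukocytes were present as well, and OM 24h stood apart in several of them. The summed FPKM of the macrophage list was 27150 in OM 24h and 3169 to 7838 in the other libraries, whereas the sum of 6 natural killer (NK) cell genes was 13.8 in OM 24h and 110.7 to 1539 elsewhere. Lyz2 alone gave 24780 of the 27150 in OM 24h and 7054 of the 7838 in OM 0h. Gzma gave 1091.5 of the NK cell sum of 1539 in MY 0h. In sorted bulk RNA, fewer cells of a type and less RNA per cell cannot be told apart.

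Among the protease genes, Cma1 and Tpsb2 had the widest range between libraries. Cma1, the gene of mast cell chymase 1 (mMCP-5), lies at chr14:56560290-56563498 on the minus strand of NCBIM37 (mm9). Its FPKM was 24.6, 0.0838 and 21.6 in naive, 24h and 7d omentum, and 21.9, 16.6 and 14.6 in naive, 24h and 7d mesentery. Thus 5 libraries lay between 14.6 and 24.6 and OM 24h lay far below them, with about 3 fragments against about 735 in OM 0h. Tpsb2, the gene of mast cell tryptase (mMCP-6; chr17:25503486-25505804, plus strand), stood at 17.9, 0.169 and 20.8 in naive, 24h and 7d omentum. In the mesentery it was listed at 0 in the naive library and reached 7.09 at 24h and 19.9 at 7d. The 2 libraries at the bottom of the Tpsb2 order were therefore OM 24h and MY 0h, and Tpsb2 was listed at 0 in the naive mesentery, which was high for Cma1. A listed 0 can be a failed estimate in this table: Cd74, at 11323 or more in the other 5 libraries, is also listed at 0 in OM 24h.

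Cpa3, the gene of mast cell carboxypeptidase A (chr3:20115516-20142080, minus strand), followed Tpsb2 rather than Cma1. Its FPKM was 10.4 in OM 0h, listed at 0 in OM 24h and 8.83 in OM 7d, and it was 0.274, 0.717 and 9.57 in naive, 24h and 7d mesentery. Mcpt4, the gene of the chymase mMCP-4 (chr14:56678581-56681147, minus strand), was the lowest of the proteases in OM 0h, OM 7d and MY 7d. It stood at 2.10, 0.153 and 3.27 in naive, 24h and 7d omentum, and at 0.0307, 1.62 and 4.96 in naive, 24h and 7d mesentery. The value in MY 0h rests on about 1 fragment and that in OM 24h on about 6. As for Tpsb2, the mesenteric values of Mcpt4 and Cpa3 stood in the order of the time points.

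**Figure D1:**
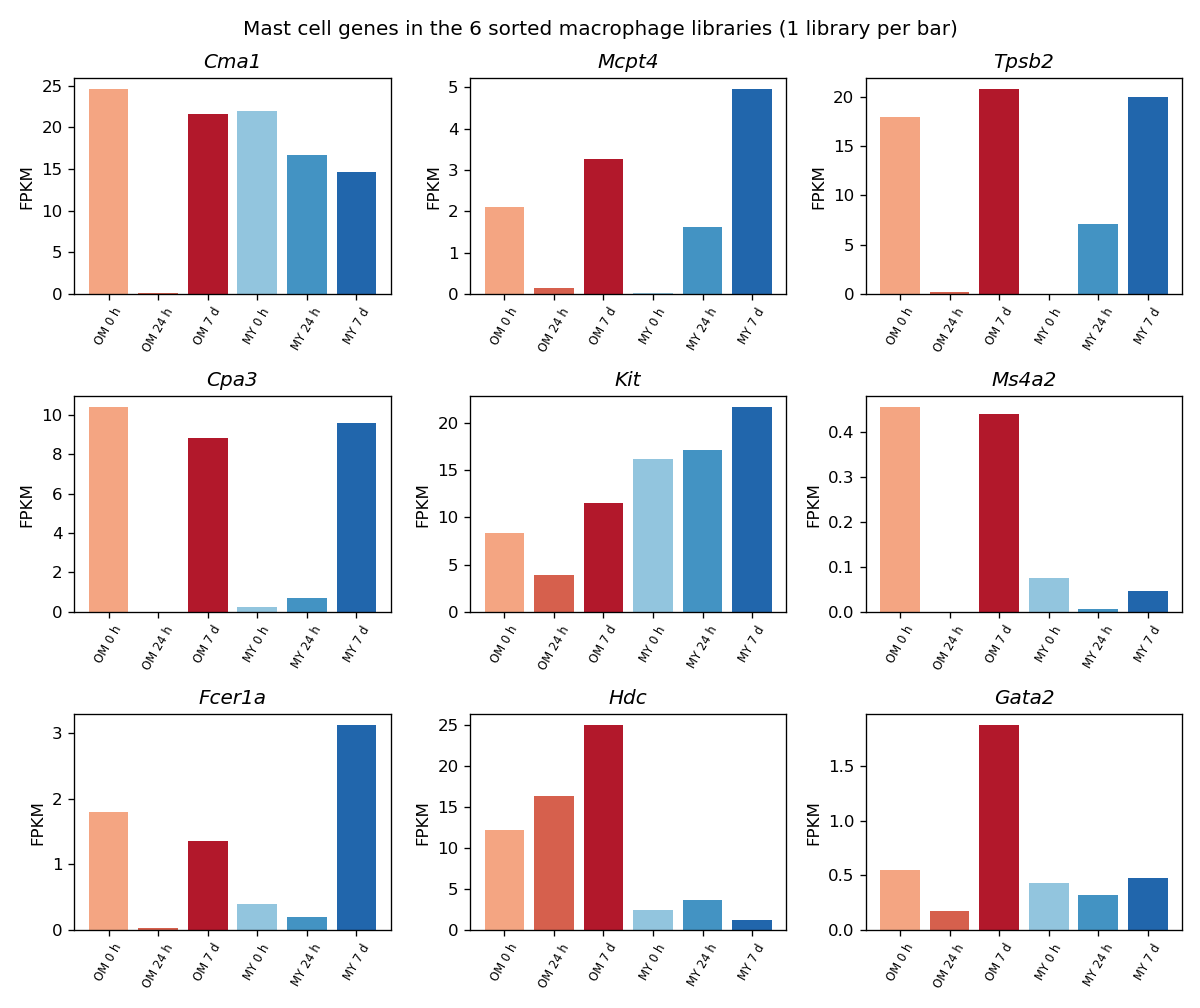
FPKM (y axis, linear, from 0, a separate scale for each gene) of the 9 mast cell genes in the 6 libraries, 1 library per bar, with omental libraries in red and mesenteric ones in blue. Tpsb2, Mcpt4 and Cpa3 were near 0 in OM 24h and in MY 0h, Cma1 was near 0 only in OM 24h, and Hdc was higher in each omental library than in each mesenteric one.

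The mix of proteases therefore differed between the libraries. Cma1 made up 98.6%, 63.8% and 29.8% of the summed FPKM of the 4 protease genes in naive, 24h and 7d mesentery, and 44.7% and 39.6% in OM 0h and OM 7d. The FPKM ratio of Tpsb2 to Cpa3 was 1.72 in OM 0h, 2.35 in OM 7d and 2.08 in MY 7d, but 9.88 in MY 24h. The ratio of Cma1 to Cpa3 was 2.37, 2.44 and 1.53 in the same 3 libraries, and 79.9 in MY 0h and 23.2 in MY 24h. OM 0h, OM 7d and MY 7d thus had the closest proportions of Tpsb2, Cpa3 and Cma1. The share of Cma1 in MY 0h rests on the listed 0 of Tpsb2, which may be a failed estimate. With the summed FPKM of Tpsb2, Cpa3 and Mcpt4 at 30.4 in OM 0h, 32.9 in OM 7d and 34.5 in MY 7d, those 3 libraries were also close in level. OM 24h and MY 0h had sums of 0.322 and 0.305.

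The 250 bases before the annotated start of 4 members are shown because the members include GATA2, whose family binds the motifs AGATAA or AGATAG and TGATAA or TGATAG. They were taken from RefSeq (GRCm38.p6) in the direction of transcription, and each matched NCBIM37 exactly once, at the position given. Capitals mark these motifs on either strand. The Cpa3 window (chr3:20142081-20142330, minus strand) has AGATAA beginning 46 bases before the start.
Cpa3: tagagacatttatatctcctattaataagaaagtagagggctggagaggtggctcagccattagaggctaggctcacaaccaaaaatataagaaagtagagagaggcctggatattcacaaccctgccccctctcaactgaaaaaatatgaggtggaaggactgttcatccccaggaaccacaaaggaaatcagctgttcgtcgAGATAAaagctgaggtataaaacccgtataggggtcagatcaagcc
The Mcpt4 window (chr14:56681148-56681397, minus strand) has TGATAA at 103 bases before the start.
Mcpt4: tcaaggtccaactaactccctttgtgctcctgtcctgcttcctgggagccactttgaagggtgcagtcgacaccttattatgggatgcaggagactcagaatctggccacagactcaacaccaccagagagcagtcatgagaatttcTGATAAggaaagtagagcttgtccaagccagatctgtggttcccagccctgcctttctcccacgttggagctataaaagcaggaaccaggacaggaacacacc
The Cma1 window (chr14:56563513-56563762, minus strand) has AGATAG on the opposite strand, its capitals beginning 79 bases before the start.
Cma1: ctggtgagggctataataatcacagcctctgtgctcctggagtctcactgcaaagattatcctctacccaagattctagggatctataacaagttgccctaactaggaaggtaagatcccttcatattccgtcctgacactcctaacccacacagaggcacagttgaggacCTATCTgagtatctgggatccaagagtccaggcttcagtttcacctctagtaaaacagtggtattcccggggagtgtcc
The Ms4a2 window (chr19:11698210-11698459, minus strand) has AGATAA at 3 places, with the capitals beginning 224, 37 and 11 bases before the start, the first 2 of them on the opposite strand.
Ms4a2: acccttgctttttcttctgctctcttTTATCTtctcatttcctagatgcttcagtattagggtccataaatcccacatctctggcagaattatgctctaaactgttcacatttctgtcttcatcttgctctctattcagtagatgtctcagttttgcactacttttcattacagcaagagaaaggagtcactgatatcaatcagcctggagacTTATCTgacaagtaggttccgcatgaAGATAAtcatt
Of the 8 members with a window in the RefSeq table, 6 held a motif (Cpa3, Mcpt4, Cma1, Ms4a2, Fcer1a and Hdc) and Kit and Gata2 held none in these letters. Kit and Gata2 have 2 windows each, so 6 of 10 member windows held a motif. Among all 32851 windows of this length, 26.5% held at least 1. A match describes the letters only.

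The chymase genes belong to a protease cluster on chromosome 14 that runs from Cma1 to Gzmb (chr14:56877693-56881097, minus strand), which encodes granzyme B of cytotoxic lymphocytes. Of 15 genes of the cluster, 6 reached an FPKM of 1 in at least 1 library: Cma1, Mcpt4, Mcpt8, Ctsg, Gzmc and Gzmb. The mucosal mast cell genes Mcpt1 and Mcpt2 did not exceed 0.436 and 0.634, and Mcpt9 was listed at 0 in all 6 libraries. Gzmb stood at 17.4, 0.0200 and 13.8 in naive, 24h and 7d omentum, and at 141.8, 104.9 and 64.0 in naive, 24h and 7d mesentery. At the ends of the cluster, Cma1 and Gzmb shared a very low value in OM 24h and a descending order over the mesenteric time points. Their FPKM ratio (Gzmb to Cma1) was 6.46, 6.30 and 4.38 in naive, 24h and 7d mesentery and 0.706 and 0.642 in OM 0h and OM 7d, so the proportion was not shared between the tissues. The sum of the NK cell list was 1539, 937.5 and 643.6 in naive, 24h and 7d mesentery and 233.5, 13.8 and 110.7 in naive, 24h and 7d omentum, and the part of these cells in the Cma1 values was not tested. Reads could hardly be split between relatives: of the 75-base windows of each member's coding transcripts none was found in another coding gene, except 26 of 916 for Mcpt4, which are also in Cma2 (at most 0.0371).

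**Figure D2:**
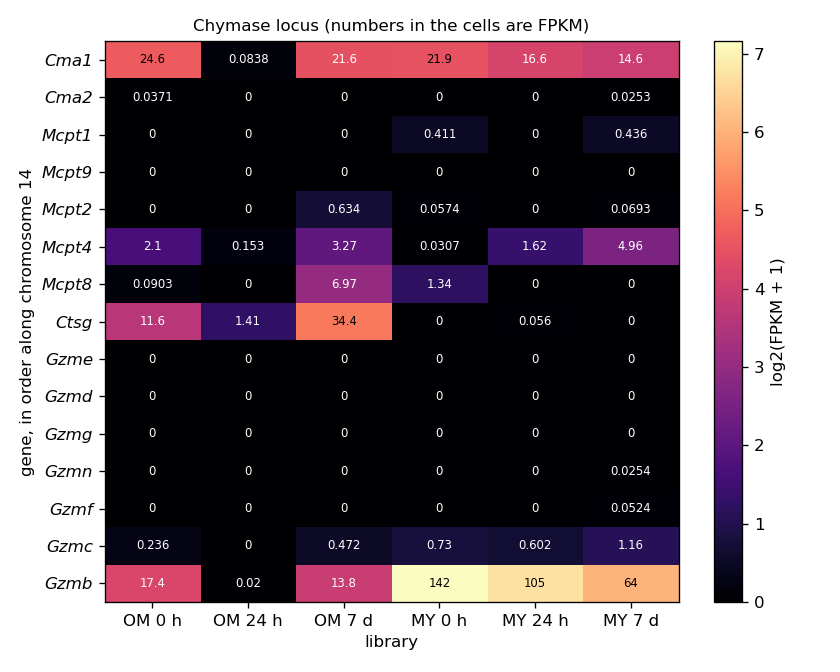
Levels of 15 genes of the chymase and granzyme cluster (y axis, in order along chromosome 14) in the 6 libraries (x axis), coloured by log2(FPKM + 1), with the FPKM printed in each cell. Cma1 and Gzmb at the ends of the cluster were both below 0.1 in OM 24h, while Mcpt4 was highest in MY 7d (4.96) and Ctsg in OM 7d (34.4).

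The receptor genes did not form 1 pattern. Fcer1a, the gene of the IgE-binding alpha chain (chr1:175151402-175157360, minus strand), stood at 1.80, 0.0258 and 1.35 in naive, 24h and 7d omentum and at 0.395, 0.194 and 3.13 in naive, 24h and 7d mesentery. Its 3 lowest libraries, OM 24h, MY 24h and MY 0h, were also the 3 lowest for Cpa3, and its OM 24h value rests on about 1 fragment. Ms4a2, the gene of the beta chain (chr19:11690013-11698209, minus strand), never reached an FPKM of 1. It was at 0.457 in OM 0h and 0.442 in OM 7d, listed at 0 in OM 24h, and at 0.0747, 0.00759 and 0.0474 in naive, 24h and 7d mesentery. MY 7d, where Fcer1a was highest, thus had about 5 fragments of Ms4a2 against about 133 of Fcer1a. The third chain gene, Fcer1g, which macrophages also use for their IgG receptors, was at 509.4 to 2889 in all libraries.

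Kit, the stem cell factor receptor gene (chr5:75970941-76052747, plus strand), was above 1 in every library. Its FPKM was 8.38, 3.95 and 11.5 in naive, 24h and 7d omentum and 16.2, 17.2 and 21.7 in naive, 24h and 7d mesentery. Every mesenteric value lay above every omental one, though how many of all genes separate the tissues in this way was not counted. MY 0h, with Tpsb2 listed at 0 and Cpa3 at 0.274, had about 2927 fragments of Kit by the rough estimate. KIT is also found on innate lymphoid cells and progenitors. Of the genes listed for group 2 innate lymphoid cells, Il7r stood at 6.01, 1.38 and 5.21 in naive, 24h and 7d omentum and at 35.1, 55.8 and 66.8 in naive, 24h and 7d mesentery. Flt3, a progenitor and dendritic cell gene, was at 24.6, 10.5 and 17.6 and at 47.2, 81.5 and 54.8 in the same order. Both genes shared with Kit the higher mesenteric values and the lowest value in OM 24h, but other genes of these lists did not. Il1rl1 was at 3.44, 1.33 and 2.39 in naive, 24h and 7d omentum and at 0.894 or less in the mesentery, and Areg was likewise higher in each omental library. Cd34 was at 12.3, 5.42 and 51.4 in naive, 24h and 7d omentum and at 1.69 or less in the mesentery. The share of such cells in the Kit level was not tested.

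Hdc, whose enzyme makes histamine from histidine (chr2:126419403-126445035, minus strand), showed the opposite tissue order. It was at 12.1, 16.3 and 25.0 in naive, 24h and 7d omentum and at 2.43, 3.67 and 1.21 in naive, 24h and 7d mesentery. Each omental value of Hdc thus lay above each mesenteric one. The share of all genes that separate the tissues in this way was not counted. Hdc was the only one of the 9 members that was not lower in OM 24h than in OM 0h. Neutrophils and basophils express Hdc too. The sum of the neutrophil list (10 of its 11 genes had a row) was 7655, 17790 and 20130 in naive, 24h and 7d omentum and 888, 735.6 and 228.7 in naive, 24h and 7d mesentery, with Elane and Mpo listed at 0 in MY 7d. The lowest library for Hdc and for this list was MY 7d and the highest was OM 7d. The same held for the summed basophil list, and the fibroblast list was also highest in OM 7d. In MY 7d, however, Il3ra gave 6.17 of the basophil sum of 10.51, and the basophil protease genes Mcpt8 and Prss34 were listed at 0. The part of neutrophils or of any other cell in the Hdc values was not tested. Gata2 (chr6:88143885-88157024, plus strand) was low throughout. It stood at 0.550, 0.176 and 1.88 in naive, 24h and 7d omentum and at 0.430, 0.318 and 0.476 in naive, 24h and 7d mesentery, above 1 only in OM 7d.

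**Figure D3:**
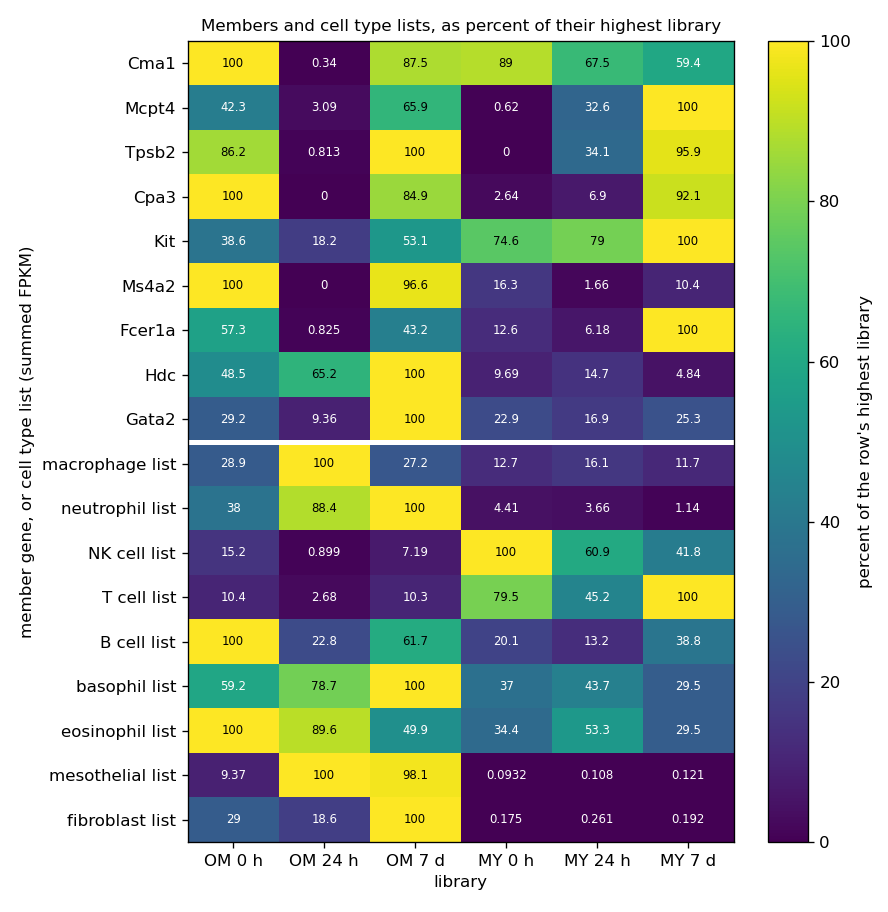
Each row gives a member gene, or below the white line the summed FPKM of a cell type list, as a percent of the row's own highest library (colour and printed value) over the 6 libraries on the x axis. Tpsb2 and Cpa3 were at 84.9% or more of their highest value in OM 0h, OM 7d and MY 7d and at 34.1% or less elsewhere. Kit was highest in the mesentery, and Hdc and the neutrophil, basophil and fibroblast lists were highest in OM 7d.

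To set the members beside all genes, differences of log2(FPKM + 1) were taken, a scale on which low genes appear to change less, over the 13064 genes that reached an FPKM of 1 anywhere. Ms4a2 did not reach this level, so 8 of the 9 members entered the counts. Between OM 24h and OM 0h, 5 of the 8 were at least 2-fold lower (Cma1, Tpsb2, Cpa3, Mcpt4 and Fcer1a), against 6.45% of all genes, and 0 were at least 2-fold higher, against 11.9%. The log2 difference was -4.56 for Cma1 and -4.02 for Tpsb2, with 0.0230% and 0.0689% of the genes below them. It was -1.45 for Fcer1a, -1.43 for Mcpt4, -0.92 for Kit, -0.40 for Gata2 and 0.40 for Hdc. The median of the 8 was -1.44, and that of all genes was 0. The 5 B cell genes of the fixed list were at least 2-fold lower in the same pair (5 of 5), as were 5 of 6 NK cell genes, while 7 of 9 macrophage genes were at least 2-fold higher. The part of a changed cell mix in the difference of the mast cell genes was not tested.

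At 7d the omental levels of the 4 protease genes were close to the naive ones, while Hdc went from 12.1 to 25.0 and Gata2 from 0.550 to 1.88. Between OM 7d and OM 0h, 0 of 8 members were at least 2-fold higher (11% of all genes) and 0 were at least 2-fold lower (1.96%). The nearest to the threshold were Hdc at 0.99 and Gata2 at 0.89, and both passed it with a pseudocount of 0.1. The 4 protease genes differed by -0.21 (Cpa3), -0.19 (Cma1), 0.20 (Tpsb2) and 0.46 (Mcpt4). Set against OM 24h in a comparison added after the values were seen, OM 7d was at least 2-fold higher in 7 of 8 members, all but Hdc, against 7.03% of all genes, and lower in 0 of 8, against 4.52%. Of these, Gata2 reached an FPKM of 1 only in OM 7d, so it entered the counts through the library in which it is called higher. Both omental comparisons with OM 24h rest on the 1 library of OM 24h.

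In the mesentery the members past the threshold against the naive library were higher. Between MY 24h and MY 0h, 2 of 8 members were at least 2-fold higher, Mcpt4 and Tpsb2 (2.8% of all genes), and 0 were lower (1.52%). Between MY 7d and MY 0h, 4 of 8 were at least 2-fold higher: Tpsb2 from a listed 0, Cpa3 with a log2 difference of 3.05, Mcpt4 with 2.53 and Fcer1a with 1.57. Only 0.498% of all genes, 65 in number, passed in this direction, and 2.29% were at least 2-fold lower, with 0 members among them. Cma1 went from 21.9 to 14.6 (-0.55), Hdc from 2.43 to 1.21 (-0.63) and Kit from 16.2 to 21.7 (0.40) in the same pair. Of the 4 proteases, 3 were therefore higher in MY 7d, together with the IgE-binding chain, and Cma1 was not. The comparison of MY 7d with MY 24h, added after the values were seen, gave 4 members at least 2-fold higher (the same 4, against 1.84% of all genes) and 1 lower (Hdc, against 3.54%). The sum of the B cell list was 795.7, 524.3 and 1539 in naive, 24h and 7d mesentery, in which MY 7d was again highest. Other lists, such as the T cell list (666.4, 378.6 and 838.3), were highest in MY 7d of the mesenteric libraries too, whereas the NK cell list was lowest there (643.6). The part of B cells or of any other cell in this pattern was not tested. MY 0h is the library shared by both comparisons with naive mesentery.

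Between the tissues the members differed by time point. OM 0h exceeded MY 0h at least 2-fold in 5 of 8 members, namely Tpsb2, Cpa3 (3.16), Hdc (1.94), Mcpt4 (1.59) and, just past the threshold, Fcer1a, against 8.18% of all genes, and was lower in 0, against 8.05%. At 24h the omentum was at least 2-fold lower in 4 members, Cma1 (-4.02), Tpsb2 (-2.79), Kit (-1.88) and Mcpt4 (-1.18), against 10.2% of all genes, and higher only in Hdc (1.89), against 13.9%. At 7d the only member past the threshold was again Hdc, higher in the omentum with 3.56, against 14.1% of all genes, while 0 were lower, against 4.99%. Tpsb2 (20.8 and 19.9) and Cpa3 (8.83 and 9.57) were nearly equal in OM 7d and MY 7d. Tpsb2 and Mcpt4 were thus higher in the omentum in the naive libraries, lower there at 24h and within 2-fold at 7d.

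**Figure D4:**
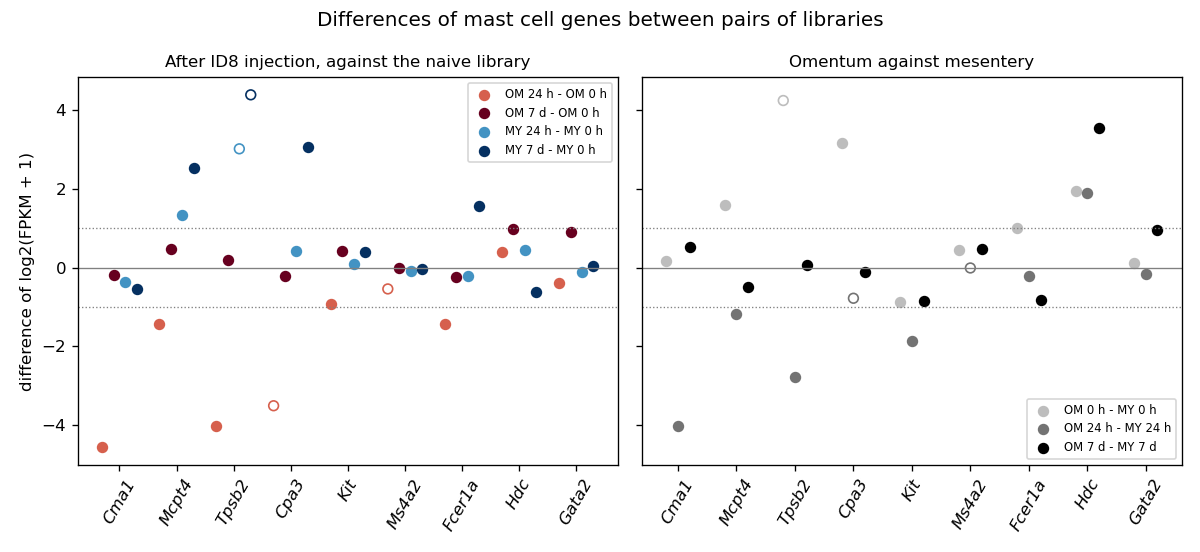
Difference of log2(FPKM + 1) (y axis) between pairs of libraries for the 9 members (x axis): on the left, 24h and 7d against the naive library of the same tissue, on the right, omentum minus mesentery at each time. Dotted lines mark 2-fold and open circles mark pairs with a library listed at 0, for which no fold is given. Cma1 and Tpsb2 were at -4.56 and -4.02 in OM 24h against OM 0h, and Mcpt4 and Cpa3 were at 2.53 and 3.05 in MY 7d against MY 0h.

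Over the 6 libraries, the members fell into a core and outliers. Pearson's r of log2(FPKM + 1) was between 0.79 and 0.96 for every pair among Tpsb2, Mcpt4, Cpa3 and Fcer1a, with the highest value for Mcpt4 and Tpsb2 (0.96). Cma1 had an r of 0.48 to 0.56 with these 4 and of 0.75 with Kit. Hdc had an r between -0.19 and 0.12 with the 4 and of -0.76 with Kit. These are descriptions over 6 points that share the split into tissues and the low library OM 24h. MY 0h was a further low library for Tpsb2, Mcpt4 and Cpa3. The listed 0 of Tpsb2 in MY 0h and that of Cpa3 in OM 24h entered as values, though each may be a failed estimate. Mcpt4 in MY 0h and Fcer1a in OM 24h rest on about 1 fragment each. By a fixed rule, the 10 genes most like the mean profile of the 8 members, among 2127 candidates with a range of at least 2 log2 units, were Spib (r = 0.93), Serpina3f, B3gnt5, Ebf1, Bend5, Trp53i11, Ctla4, Plvap, Scd1 and Adh1 (r = 0.83). Spib, a transcription factor gene of B cells and plasmacytoid dendritic cells, had an FPKM of 190.3, 40.2 and 123.7 in naive, 24h and 7d omentum and of 52.3, 61.3 and 117.1 in naive, 24h and 7d mesentery. Ebf1 is a B cell transcription factor gene as well, and its FPKM was 15.5, 2.88 and 10.3 and 4.17, 3.27 and 8.89 in the same order. Their range was narrower than that of Tpsb2 or Cpa3. With a pseudocount of 0.1 only 3 of the 10 remained in the first 10.

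**Figure D5:**
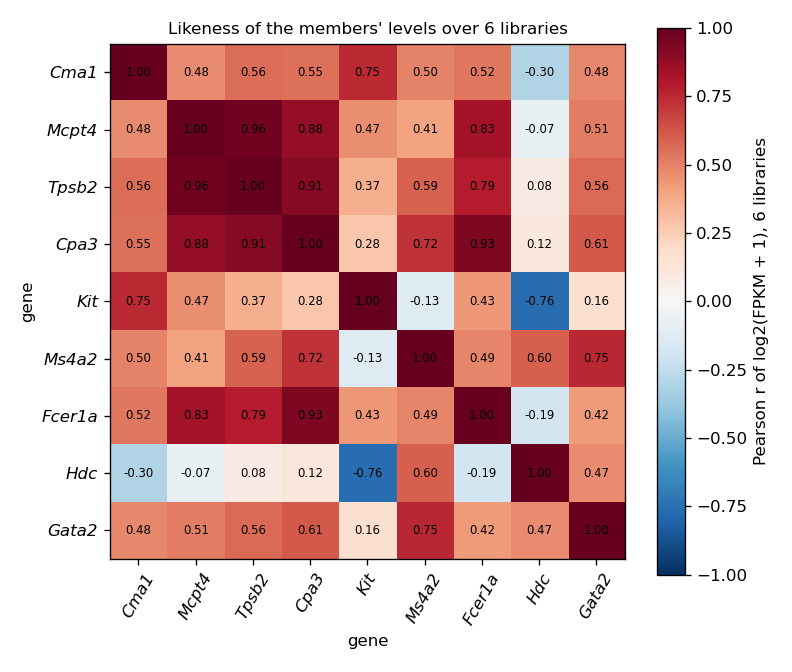
Pearson's r of log2(FPKM + 1) over the 6 libraries (colour and printed value) for each pair of the 9 members. Tpsb2, Mcpt4, Cpa3 and Fcer1a form the block of high values (0.79 to 0.96), and Hdc is below 0 with Kit (-0.76), Cma1, Fcer1a and Mcpt4.

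Of 26 further mast cell genes on a list, all with a row, 14 reached an FPKM of 1 in at least 1 library, a share close to that of the whole table (13064 of 23946). By their highest library, the leading genes were Cd63 (64.0 to 489.8), Ltc4s (9.61 to 302.7) and Hs3st1 (1.42 to 51.6), of which macrophages also express the first pair, and all 3 had higher values in OM 24h than in OM 0h, in contrast to the proteases. Some genes of the list were low throughout. Mrgprb2, the receptor gene for basic secretagogues, did not exceed 0.297. Tpsab1 (the tryptase gene that C57BL/6 mice cannot express as a functional protein) did not exceed 1.12. Slc45a3 (0.179 to 6.89) and Rgs13 (0.237 to 3.67) reached higher values. Cyp11a1, found in mast cells and basophils, was at 3.20, 0.231 and 1.75 in naive, 24h and 7d omentum and at most 0.429 in the mesentery. In the pair OM 24h and OM 0h, 5 of the 14 were at least 2-fold higher (11.9% of all genes) and 1, Cyp11a1, was lower (6.45%). The 5 were Cd63, Ltc4s, Hpgds, Slc45a3 and Smpx, the last from a listed 0. In MY 7d against MY 0h, 1 of 14 was higher (Hs3st1, from 2.96 to 8.58, beside 0.498% of all genes) and 0 were lower (2.29%). The 4 mast cell genes that were higher in MY 7d thus had 1 companion among the 14 tested genes of this list. Genes of the list that stayed below an FPKM of 1 did not enter the count, and they went both ways in this pair. Tph1 went from a listed 0 to 0.630 and Tpsg1 from a listed 0 to 0.293, while Rab27b went from 0.262 to 0.165.

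The pathways around the members were carried largely by genes that other cell types share. All 17 genes of IgE receptor signalling reached an FPKM of 1. In OM 24h against OM 0h, 2 were at least 2-fold higher (Fcer1g and Lcp2), beside 11.9% of all genes. Syk, Lat and Btk were among those at least 2-fold lower, beside 6.45% of all genes. In MY 7d against MY 0h, 0 of 17 passed in either direction (0.498% of all genes higher and 2.29% lower). Of 11 genes of growth factors and their receptors, 9 were tested, and Il3 and Il9 were listed at 0 in all 6 libraries. Kitl, the gene of the KIT ligand, was at 0.953, 3.69 and 5.51 in naive, 24h and 7d omentum and at 0.373, 1.05 and 0.385 in naive, 24h and 7d mesentery. The ligand gene was thus higher than in the naive library in OM 24h, where Kit was at its lowest, in OM 7d and in MY 24h. Of the same list, Il9r, an IL-9 receptor gene, was at 16.6 in OM 0h, 1.56 in OM 24h and 7.4 in OM 7d, and at 1.93 to 2.91 in the mesentery.

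Histamine handling and granule genes also parted from the proteases. Besides Hdc, 3 of 9 histamine genes reached an FPKM of 1: Slc18a2, the vesicular monoamine transporter gene (1.04 to 1.69 in all libraries), Hnmt, which encodes a histamine-degrading enzyme (1.63, 5.10 and 2.73 in naive, 24h and 7d omentum, and 0.543 to 1.5 in the mesentery), and the receptor gene Hrh2 (2.89 to 5.05). Slc18a2, needed to load histamine into granules, hence varied little while Hdc varied widely. All 15 genes of granules and heparin synthesis reached 1. Srgn, the serglycin gene, was at 428.2 to 754.8, and Ctsc, whose product activates chymases and granzymes, at 136.2 to 796.9 with its highest value in OM 24h. In OM 24h against OM 0h, 6 of the 15 were at least 2-fold higher (11.9% of all genes) and 2, Ctsg and Gzmb, lower (6.45%). In MY 7d against MY 0h, 1 was higher (Hs3st1, beside 0.498% of all genes) and 1 lower (Gzmb, beside 2.29%). Among 16 tested transcription factor genes of the mast cell lineage, 3 were at least 2-fold higher (Mitf, Meis2 and Cebpa) and 4 lower (Gata3, Zfpm1, Ikzf1 and Cbfa2t3) in OM 24h against OM 0h, and 0 were higher and 2 lower (Cebpa and Cbfa2t3) in MY 7d against MY 0h. Gata1 was highest in OM 7d (3.84) and MY 24h (3.78), and Mitf, a regulator of Kit and of protease genes in mast cells, in MY 24h (2.78) and OM 24h (2.66).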

How the data were processed

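The deposited table was examined for 9 named genes in 6 libraries. Per the labels, read quality came from FastQC 0.11.4 and alignment to mm9 from STAR 2.4.2a. The authors used a UCSC annotation and deposited FPKM from Cufflinks. STAR counts and DESeq2 comparisons are described in the methods and were not used here. With 1 library per condition no test was made. Differences were taken on log2(FPKM + 1) for genes reaching an FPKM of 1 in any library, and 2-fold, the threshold of the study's methods, was counted. The value of about 1 fragment was the mode of low FPKM times transcript length over genes with 1 coding transcript of at least 1000 bases, so fragment numbers are approximate. Python 3.11.15, numpy 2.4.6 and pandas 2.3.3 were used, and counting and likeness were tested on simulated data. Positions are from GENCODE M1 (NCBIM37). Promoters of 8 of the 9 members are from RefSeq, and that of Tpsb2 was not used here. Members, gene lists and comparisons were chosen with earlier results of these data known. All 9 members are named, lists are given as counts with examples of high or strongly differing genes, and the 10 most similar genes follow from Pearson's r. List genes named for their role, such as Il7r, Flt3, Mrgprb2, Tpsab1 and Slc18a2, were picked with their values in view. Other settings tried were pseudocounts of 0.1 and 5, a median-ratio rescaling, a rescaling to a sum of 1000000 and other filters. A gene of the IgE receptor signalling list is not reported here.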

Additional observations from a re-analysis of the deposited data

Results flagged for a closer look

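The members Mcpt4, Tpsb2 and Hdc moved in opposite directions in the tissues by at least 1.5-fold each, which was not tested because each condition has 1 library. At 24h, Mcpt4 had a log2 difference from the naive library of -1.43 in the omentum and of 1.34 in the mesentery, and Tpsb2 had one of -4.02 in the omentum while it went from a listed 0 to an FPKM of 7.09 in the mesentery. At 7d, Hdc was at 0.99 in the omentum and at -0.63 in the mesentery. Of all 13064 genes compared, 189 (1.45%) moved in opposite directions in this way at 24h and 214 (1.64%) at 7d.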

How the results depend on the processing

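No paired analysis was possible because the 6 conditions have a single library apiece, and no replicate could be left out. A count was taken as kept within 1.5 times its value. With a pseudocount of 5, the members at least 2-fold lower in OM 24h against OM 0h were 3 in place of 5, those higher in MY 24h against MY 0h were 1 in place of 2, those higher in MY 7d against MY 0h were 2 in place of 4, and those higher in OM 0h against MY 0h were 3 in place of 5. For OM 7d against OM 0h, 2 members were higher with a pseudocount of 0.1, 1 after the median-ratio rescaling and 2 after rescaling to a sum of 1000000, in place of 0. For OM 7d against MY 7d, 2 were higher under each of these 3 settings in place of 1, and 1 was lower with a pseudocount of 0.1 and after rescaling to the sum, in place of 0. After rescaling to the sum, 1 was lower in OM 0h against MY 0h in place of 0. That rescaling moved the median of all genes to -0.17 in OM 24h against OM 0h, to 0.12 in OM 7d against OM 0h, to -0.19 in OM 0h against MY 0h and to -0.27 in OM 24h against MY 24h. The filters changed no count beyond this limit. For the comparisons added later, a pseudocount of 5 gave 3 members higher in OM 7d against OM 24h in place of 7, and 2 higher and 0 lower in MY 7d against MY 24h in place of 4 and 1. Of 51 single-gene log2 differences, 20 moved by 0.58 or more with a pseudocount of 0.1, 18 with 5, 4 after rescaling to the sum and 0 after the median-ratio rescaling, and 0 of those of at least 2-fold changed sign. A pseudocount shrinks or widens low values by construction. Among the 10 most similar genes, 3 were kept with a pseudocount of 0.1, 5 with 5 and 6 when only Mcpt4, Tpsb2, Cpa3 and Fcer1a gave the profile, an alternative added later. Values under about 10 fragments, such as Cma1 in OM 24h, are limited by depth.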

Other observations

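Basophils share Fcer1a, Ms4a2, Hdc and Gata2 with mast cells, and both basophil protease genes listed were highest in OM 7d. Mcpt8, the basophil protease gene, was at 6.97 in OM 7d, at 1.34 in MY 0h and at most 0.0903 elsewhere, and Prss34, another basophil protease gene, was at 7.55 in OM 7d, at 1.07 in MY 24h and listed at 0 in the other 4 libraries. Of the 10 basophil genes listed, 7 reached an FPKM of 1, and 3 of them (Mcpt8, Prss34 and Il4) were at least 2-fold higher in OM 7d against OM 0h, beside 11% of all genes, with 0 lower. Il4 was higher still in MY 24h (4.48 against 3.29 in OM 7d), and Cyp11a1, Il3ra and Il6 had lower values in OM 7d than in OM 0h. Gata2 had its highest value (1.88) in the same library. Ctsg, the cathepsin G gene of neutrophil and mast cell granules, was also highest there (34.4), with Elane at 235.0 and Mpo at 117.3.

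Enzymes of prostaglandin and leukotriene synthesis, which mast cells and macrophages share, differed from the proteases. In OM 24h against OM 0h, 6 of 7 were at least 2-fold higher (11.9% of all genes) and 0 lower (6.45%). Among the 6 were Alox5 (41.5 against 17.9), Alox5ap (529.6 against 249.7) and Ltc4s (302.7 against 130.5). In MY 24h against MY 0h, 4 of 7 were higher, beside 2.8% of all genes, with Alox5 at 9.43 against 1.19. The macrophage list was higher in both pairs, at 7 and 4 of 9 genes.

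Other cell type lists were summed for comparison. In the omental libraries the mesothelial list had a summed FPKM of 92.4 to 986.6 and the fibroblast list one of 221.5 to 1190, and in the mesenteric libraries both were at 3.10 or less. The T cell list summed to 22.4 to 87.5 in the omentum and to 378.6 to 838.3 in the mesentery. The endothelial list (20.5 to 50.4), the eosinophil list (44.6 to 151.0), the progenitor list (24.9 to 103.3) and the list of group 2 innate lymphoid cells (11.5 to 103.0) gave such sums over both tissues, the last pair of lists including Kit. In OM 0h, Pecam1 gave 37.8 of the endothelial 50.4 and Ear2 gave 123.6 of the eosinophil 151.0. There these sums rest mainly on 1 gene each. The 9 genes induced by tissue dissociation summed to 3388 to 5315 in the omentum and to 408.7 to 440.9 in the mesentery.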
